A study of Mus musculus with 18 samples.

Results

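Transcripts of 9 genes encoding conventional mitogen-activated protein kinases (MAPKs) were examined in C2C12 myotubes, out of 55414 genes in the count table: Mapk3 (ERK1) and Mapk7 (ERK5) of the ERK branch, Mapk8 (JNK1), Mapk9 (JNK2) and Mapk10 (JNK3) of the JNK branch, and Mapk11 (p38β), Mapk12 (p38γ), Mapk13 (p38δ) and Mapk14 (p38α) of the p38 branch. The genes were taken by name and by no rule on measured values, though with earlier results of these data known. All 9 passed the filter of at least 10 counts over all libraries. C2C12 is a mouse myoblast line whose cells leave the cell cycle and merge into myotubes when serum is lowered. The cells were transfected at confluence with a pool of siRNAs, either non-targeting (siNTC), against Erk3 (siErk3) or against Mk5 (siMk5), differentiated for 6 days and then held for 16 h in serum-free medium that contained BSA alone or 0.5 mM palmitic acid bound to BSA (PA). Each of the 6 groups, siNTC BSA, siErk3 BSA, siMk5 BSA, siNTC PA, siErk3 PA and siMk5 PA, has 3 libraries. All come from 1 cell line, and no source used here says whether the libraries of a group were separate cultures, so that p-values measure only the spread between these libraries. Erk3, encoded by Mapk6, is an atypical MAPK, and the study asked how the loss of Erk3 or of its partner kinase Mk5, encoded by Mapkapk5, changes muscle cells under lipid load. Here the same libraries show which conventional MAPK transcripts such cells hold, and whether silencing or PA moved them.

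Conventional MAPKs stand at the end of a relay of 3 kinases, in which a MAP kinase kinase kinase (MAP3K) phosphorylates a MAP kinase kinase (MAP2K), which in turn phosphorylates the MAPK on a threonine and a tyrosine of its activation loop. ERKs are mainly switched on by growth factors, JNKs and p38 kinases by stress and cytokines, and dual-specificity phosphatases remove the activating phosphates again. In muscle, p38 activity drives the myogenic programme, p38γ is particularly abundant, ERK5 takes part in myoblast fusion, and JNKs are known to respond to saturated fatty acids. RNA counts report transcript abundance and not phosphorylation, so that no value below is a measure of kinase activity.

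The 3 branches can be told apart at the activation loop itself, where the residue between the threonine and the tyrosine is glutamate in ERKs, proline in JNKs and glycine in p38 kinases. The coding bases around this motif are shown because they carry the signature by which the 9 genes are grouped. They were read from the canonical transcripts of GENCODE M39 (GRCm39), each run of 27 bases lies within a single coding exon, and capitals mark the codons of the threonine, the middle residue and the tyrosine.
Mapk3, chr7:126362621-126362647, plus strand: ggctttctgACGGAGTATgtggccaca
Mapk7, chr11:61382239-61382265, minus strand: tacttcatgACTGAGTATgtggctact
Mapk8, chr14:33114951-33114977, minus strand: tttatgatgACGCCTTATgtggtgact
Mapk9, chr11:49763648-49763674, plus strand: tttatgatgACTCCCTATgtggtaact
Mapk10, chr5:103137538-103137564, minus strand: ttcatgatgACTCCGTATgtggtgacg
Mapk11, chr15:89030060-89030086, minus strand: gaggagatgACCGGATATgtggccaca
Mapk12, chr15:89018870-89018896, minus strand: agtgagatgACAGGATATgtggtaacc
Mapk13, chr17:28995309-28995335, plus strand: actgagatgACGGGCTATgtggtgacc
Mapk14, chr17:28947364-28947390, plus strand: gatgagatgACAGGCTACgtggctacc

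Translation of the canonical coding sequences gave proteins of 344 to 501 residues, except for Mapk7 with 806 residues, whose long tail carries a transcriptional activation domain. Mapk8 and Mapk9 were identical at 82.7% of aligned residues, Mapk11 and Mapk14 at 75%, Mapk12 and Mapk13 at 65.1%, and Mapk3 and Mapk7 at 50.0%. At the level of transcripts the genes were far enough apart to be counted separately. The longest stretch of bases that any 2 of the 9 canonical transcripts shared exactly was 26, against reads of 151 bases, and no exon of a member overlapped another gene on the same strand. Mapk7 shared 89 exonic bases with Mfap4 on the opposite strand, which the stranded counting keeps apart. The p38 genes lie in 2 tandem pairs. Mapk12 (chr15:89014787-89024906) and Mapk11 (chr15:89026689-89033831) are separated by 1782 bases on the minus strand, and Mapk14 (chr17:28910303-28967380) and Mapk13 (chr17:28988271-28999207) by 20890 bases on the plus strand, with 0 protein-coding genes between the genes of either pair.

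The libraries held 13041979 to 28496727 assigned read pairs. Mapk6 was lower in the siErk3 groups, at 57.4 ± 2.64 CPM (counts relative to library size scaled by TMM; mean ± SD, n = 3) against 132 ± 3.18 CPM in siNTC with BSA, and at 120 ± 11.4 against 232 ± 14.7 CPM with PA. Mapkapk5 had few counts, at 1.63 ± 0.422 CPM in siMk5 BSA against 2.46 ± 0.126 CPM in siNTC BSA and at 2.31 ± 0.131 against 3.24 ± 0.702 CPM with PA, with an FDR of 0.469 in both media, and 56.37% of its exonic bases are shared with Gm42878 on the same strand. All 9 myotube markers were expressed, with a summed level of 11585 to 15826 CPM, while the adipocyte markers had 0 to 6 counts each over all libraries. Of the 5 macrophage markers, Ptprc and Adgre1 had 2 and 0 counts over all libraries and Csf1r, Itgam and Cd68 had 93 to 483 each, and the 4 endothelial markers had 29 (Kdr) to 146 (Tek). The first principal component separated PA from BSA and held 91.5% of the variance. 1 library, siNTC BSA replicate 1, had the lowest total and stood farther from the others of its group (RMS distance 0.162 on the log2 scale) than any other BSA library, and siErk3 PA replicates 1 and 3 (0.184 and 0.163) stood farther from theirs than any other PA library.

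Mapk3 had the highest level of the 9 genes when length was counted over all annotated exons. Set against the length of all annotated exons of a gene, as CPM per kilobase (RPKM), the levels in siNTC BSA were 37.7 ± 3.54 for Mapk3, 13.1 ± 0.286 for Mapk14, 7.93 ± 0.349 for Mapk12, 6.91 ± 0.291 for Mapk9, 6.27 ± 0.20 for Mapk7, 5.53 ± 0.736 for Mapk11 and 3.62 ± 0.173 for Mapk8 (SD, n = 3). The libraries of neighbouring genes in this order overlapped only for Mapk7 and Mapk11 among these 7. In every group Mapk3 and Mapk14 held the first and second place, and Mapk8 the seventh. The middle of the order was not resolved with PA, where Mapk7, Mapk12 and Mapk9 lay between 7.92 and 8.56 RPKM in each of the 3 groups and neighbours overlapped. Nor was it fully resolved in siErk3 BSA and siMk5 BSA, where Mapk9 stood above Mapk12. There Mapk12, Mapk7 and Mapk11 measured 6.67, 6.59 and 6.11 RPKM in siErk3 and 6.30, 6.21 and 6.29 RPKM in siMk5, and neighbours among them overlapped. The order depends on the length used, an alternative chosen after the data were seen. With the length of the canonical transcript alone, Mapk8 moved to the third place in all 6 groups, at 15.7 RPKM in siNTC BSA, and Mapk14 passed Mapk3 in siNTC PA (33.0 against 31.4) and siErk3 PA (34.1 against 30.5).

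Mapk10 and Mapk13 were at the limit of detection. Mapk10, the JNK gene best known from brain and heart, had 16 read pairs over the 18 libraries with 0 to 4 in each, and 8 libraries had none. Mapk13, a p38 gene of epithelia, also had 16 read pairs, with 0 to 3 in each and 6 libraries at 0. A count of 0 allows up to 3 read pairs, worth 0.105 to 0.23 CPM at these depths (counting error only). All 3 siMk5 PA libraries had 0 pairs of Mapk10, so that the fitted fold changes of this group are no bound and are not given. Neither gene passed any comparison, and differences below that limit were not detectable.

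**Figure D1:**
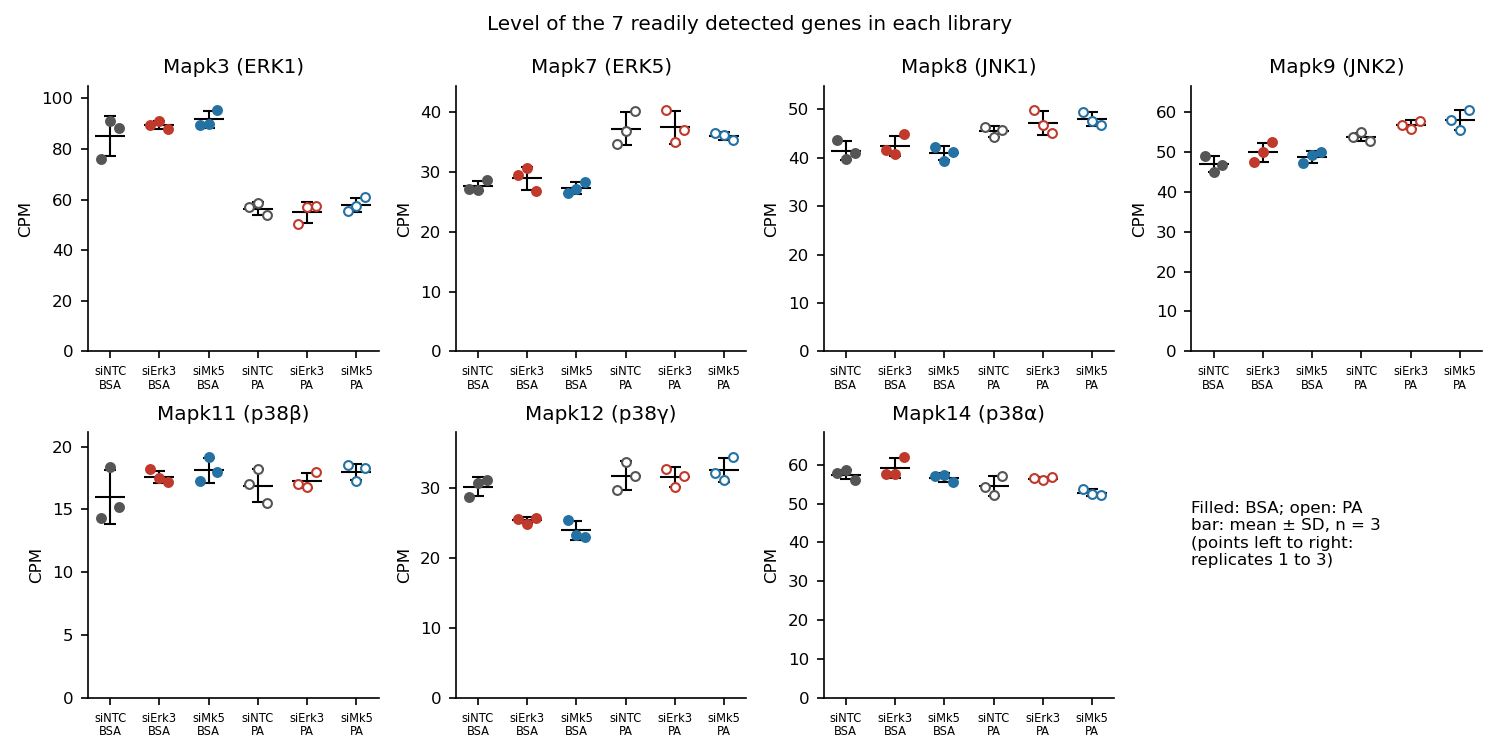
CPM of the 7 readily detected MAPK genes in each of the 18 libraries (points, filled for BSA and open for PA, replicates 1 to 3 from left to right), with the mean ± SD of the 3 libraries of a group; each vertical axis starts at 0. Mapk3 sits at 75.9 to 95.3 CPM with BSA and at 50.3 to 60.8 CPM with PA, and Mapk12 is lower in siErk3 BSA and siMk5 BSA than in the other 4 groups.

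PA lowered Mapk3 and raised Mapk7 transcripts. Genes were called when the FDR, the Benjamini-Hochberg adjusted p of edgeR's quasi-likelihood test over 21772 genes, was below 0.05 and the fold change exceeded 1.3 in either direction. PA against BSA called 2 of the 9 members in siNTC, 1 in siErk3 and 3 in siMk5, where 30.6%, 32.1% and 29.7% of all genes were called. By the FDR alone 4, 5 and 5 members passed, against 45.1%, 47.1% and 44.3% of all genes. PA thus moved a large part of the transcriptome, and the members' shares were near or below this background by the first rule and near or above it by the second. The 3 comparisons use different libraries throughout. Their median log2 fold change over the 9 members was 0.14, 0.15 and 0.23, beside -0.03, -0.01 and -0.01 over all genes. These medians include the unreliable values of the sparse Mapk10 and Mapk13. The 7 readily detected members ran from -0.60 to 0.43 in siNTC, -0.70 to 0.37 in siErk3 and -0.66 to 0.44 in siMk5.

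Mapk3, the kinase through which growth factor signals reach many nuclear and cytoplasmic substrates, was the only member that was lower with PA in all 3 siRNA groups by both criteria. Its level was 75.9, 91.0 and 88.1 CPM in siNTC BSA and 57.1, 58.5 and 53.8 CPM in siNTC PA. In siErk3 it was 89.5, 91.0 and 87.7 CPM with BSA and 50.3, 57.0 and 57.5 CPM with PA, and in siMk5 89.5, 89.9 and 95.3 CPM with BSA and 55.3, 57.6 and 60.8 CPM with PA. All 9 PA libraries lay below all 9 BSA libraries. The log2 fold change was -0.60 (SE 0.06, edgeR FDR 8.25e-10) in siNTC, -0.70 (SE 0.06, FDR 1.36e-11) in siErk3 and -0.66 (SE 0.06, FDR 7.81e-11) in siMk5, a loss of 33.8%, 38.5% and 36.8%. In fits without 1 library the value stayed between -0.69 and -0.56 in siNTC, -0.75 and -0.66 in siErk3 and -0.70 and -0.63 in siMk5, and the call held in all these fits. The size did not differ detectably between siRNAs. The interaction with PA was -0.11 (95% interval -0.28 to 0.07, FDR 0.881) for siErk3 and -0.07 (-0.24 to 0.11, FDR 0.896) for siMk5.

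Mapk7, whose product ERK5 is activated by MAP2K5 and acts on MEF2 factors, went the other way. It measured 27.2, 26.9 and 28.6 CPM in siNTC BSA and 34.6, 36.8 and 40.1 CPM in siNTC PA. In siErk3 it measured 29.5, 30.6 and 26.8 CPM with BSA and 40.3, 35 and 36.9 CPM with PA, and in siMk5 26.4, 27.2 and 28.3 CPM with BSA and 36.5, 36.2 and 35.3 CPM with PA. The PA and BSA libraries did not overlap in any siRNA group. The log2 fold change was 0.43 (SE 0.07, edgeR FDR 2.58e-06) in siNTC, 0.37 (SE 0.06, FDR 1.31e-05) in siErk3 and 0.40 (SE 0.07, FDR 7.28e-06) in siMk5. The value in siErk3 fell just short of the fold criterion, and the 3 values straddle that criterion rather than differ, with interactions of -0.06 (95% interval -0.25 to 0.13) and -0.03 (-0.22 to 0.16). Leaving out siNTC PA replicate 3 (0.35) or siMk5 BSA replicate 1 (0.38) ended the call in that siRNA group, and leaving out siErk3 BSA replicate 2 or siErk3 PA replicate 2 (0.40 each) made it in siErk3. The FDR stayed at or below 0.000564 in all these fits.

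The JNK genes Mapk8 and Mapk9 were slightly higher with PA. Mapk9 lay at 49.0, 45.0 and 46.6 CPM in siNTC BSA and at 53.7, 54.9 and 52.7 CPM in siNTC PA, and its groups did not overlap in siErk3 (47.5 to 52.3 against 55.6 to 57.8 CPM) or siMk5 (47.1 to 50.0 against 55.4 to 60.4 CPM) either. Its log2 fold changes of 0.20, 0.18 and 0.25 (SE 0.05 each) in siNTC, siErk3 and siMk5 passed the FDR (0.00183, 0.00286 and 0.000152 in edgeR) but not the fold criterion, and each fit without 1 library kept the FDR below 0.05. Mapk8 lay at 43.6, 39.8 and 40.9 CPM in siNTC BSA and at 46.3, 44.2 and 45.7 CPM in siNTC PA. Its values of 0.14, 0.15 and 0.23 (SE 0.06, 0.05 and 0.06; FDR 0.0477, 0.0208 and 0.00103 in edgeR) were less firm. Without 1 library, the FDR stayed below 0.05 in 6 of 6 fits in siMk5, in 2 of 6 in siErk3 and in 1 of 6 in siNTC, where only the fit without siNTC BSA replicate 1 kept it (0.0431). In siErk3 it was lost without BSA replicate 1 (0.0992), BSA replicate 2 (0.134), PA replicate 1 (0.217) or PA replicate 2 (0.0625). DESeq2 gave an adjusted p of 0.087 for Mapk8 in siNTC. When libraries were scaled by their totals alone, Mapk8 measured 0.03 and 0.05 and Mapk9 0.10 and 0.08 in siNTC and siErk3, with FDRs of 0.165 to 0.714, while the median over all genes moved from -0.03 to -0.12 in siNTC and from -0.01 to -0.11 in siErk3.

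Among the p38 genes, PA left no called difference in Mapk14 and Mapk11. Mapk14, the p38α gene required for myoblast differentiation, measured 57.8, 58.6 and 56.2 CPM in siNTC BSA and 54.4, 52.1 and 57.2 CPM in siNTC PA, which overlap. In siErk3 it measured 57.6, 57.7 and 62.1 CPM with BSA and 56.5, 56.0 and 56.8 CPM with PA, and in siMk5 57.2, 57.5 and 55.5 CPM with BSA and 53.8, 52.5 and 52.2 CPM with PA, with the PA libraries below the BSA libraries in both. Its log2 fold changes in siNTC, siErk3 and siMk5 were -0.08, -0.07 and -0.10 (SE 0.05 each, edgeR FDR 0.226, 0.248 and 0.0916). The 95% intervals, whose outer ends are -0.20 and 0.03, leave room for a loss but not for a change of 1.3-fold. Mapk11 measured 14.3, 18.4 and 15.2 CPM in siNTC BSA and 17, 18.2 and 15.5 CPM in siNTC PA, with overlapping groups in all 3 siRNA groups and log2 fold changes of 0.07, -0.03 and -0.01 (SE 0.08 each). Under scaling by totals alone Mapk14 passed the FDR in siNTC (-0.18, FDR 0.00601) and siErk3 (-0.18, FDR 0.00503).

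Mapk12 had the largest interaction values of the 7 readily detected members. It encodes p38γ, which carries a docking tail for PDZ proteins and is abundant in skeletal muscle. In siNTC it measured 28.7, 30.8 and 31.1 CPM with BSA and 29.7, 33.7 and 31.8 CPM with PA, overlapping ranges with a log2 fold change of 0.07 (SE 0.06, FDR 0.426). In siErk3 it measured 25.6, 24.8 and 25.7 CPM with BSA and 32.8, 30.1 and 31.8 CPM with PA, a difference of 0.31 (SE 0.06, FDR 9.12e-05) that missed the fold criterion. In siMk5 it measured 25.5, 23.3 and 23 CPM with BSA and 32.1, 31.1 and 34.5 CPM with PA, a rise of 0.44 (SE 0.06, FDR 1.08e-06) that met both criteria. The 3 PA groups overlapped at 29.7 to 34.5 CPM, whereas with BSA the siErk3 and siMk5 libraries lay below those of siNTC. The difference between these effects did not pass over all genes. The interaction was 0.25 (SE 0.09, edgeR FDR 0.598) for siErk3, where 0.0413% of all genes passed the FDR and 0.0367% both criteria, and 0.37 (SE 0.09, edgeR FDR 0.0985) for siMk5, where 0.225% and 0.211% did. For siMk5 it passed both criteria without siMk5 BSA replicate 1 (0.42, FDR 0.0408) and under scaling by totals alone (0.52, FDR 0.00375), and DESeq2 gave it an adjusted p of 0.046 at 0.37, just short of the fold criterion, while the same scaling moved the median interaction of all genes from -0.02 to 0.13.

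**Figure D2:**
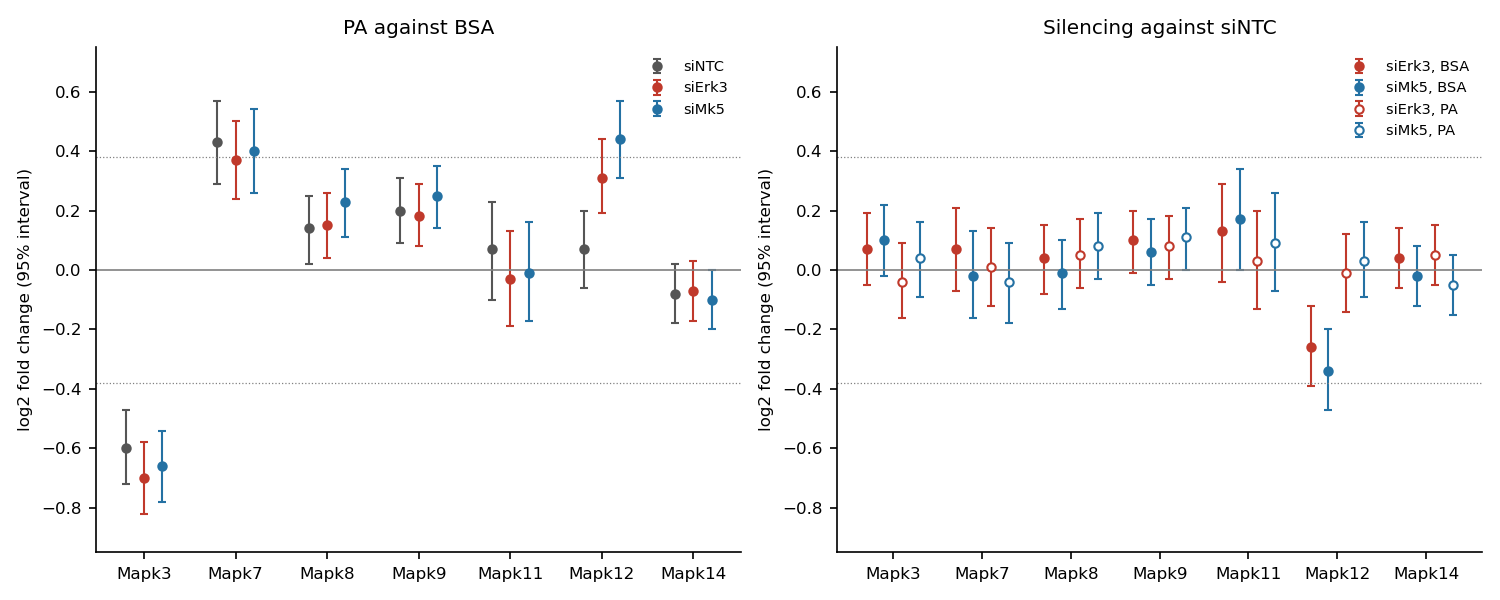
Log2 fold changes of the 7 readily detected MAPK genes with their 95% intervals, for PA against BSA in each siRNA group (left) and for silencing against siNTC in each medium (right); dotted lines mark a fold change of 1.3. PA lowers Mapk3 by 0.60 to 0.70 and raises Mapk7 by 0.37 to 0.43, and of the silencing values only those of Mapk12 with BSA, -0.26 and -0.34, passed the FDR.

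The shift between Mapk3 and the other members changed the make-up of the MAPK message. Of the summed RPKM of the 9 genes, 81.0 ± 4.08 in siNTC BSA and 72 ± 1.12 in siNTC PA, Mapk3 held 46.4% ± 2.13 with BSA and 34.7% ± 1.25 with PA (SD, n = 3). The p38 genes together held 32.8% ± 0.838 and 37.0% ± 0.455, and the JNK genes 13% ± 1.25 and 16.5% ± 0.243. Mapk7 held 7.75% ± 0.436 and 11.7% ± 0.895. In siErk3 the share of Mapk3 was 47.4% ± 0.732 and 33.5% ± 2.11, and in siMk5 48.8% ± 0.932 and 34.9% ± 1.15. These shares are a description, are set by the exon lengths used, and rise for the other genes when Mapk3 falls.

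**Figure D3:**
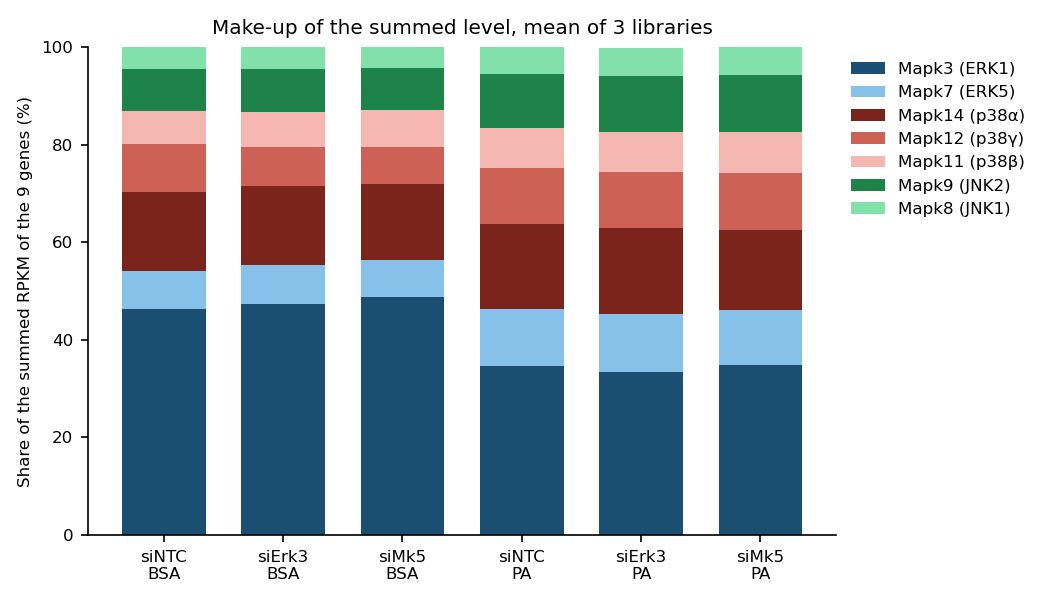
Share of the summed RPKM of the 9 MAPK genes held by each gene in each group (stacked bars, mean of 3 libraries; Mapk10 and Mapk13 are too low to be seen). Mapk3 takes 46.4% to 48.8% in the BSA groups and 33.5% to 34.9% in the PA groups.

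Silencing of Erk3 or Mk5 gave no called difference in a conventional MAPK transcript. Against siNTC, 0 of 9 members met both criteria in any of the 4 comparisons, where 0.785% of all genes did for siErk3 and 0.0643% for siMk5 with BSA, and 0.556% and 0.547% with PA. By the FDR alone 1 member passed for each siRNA with BSA, against 1.21% of genes for siErk3 and 0.0827% for siMk5, and 0 passed with PA, against 0.854% and 0.776%. By edgeR at an unadjusted p under 0.05, 1 member each differed in the BSA comparisons, 0 for siErk3 with PA and 2 for siMk5 with PA (Mapk9 at 0.11 and the sparse Mapk10), and DESeq2 called 0 members in these comparisons. The log2 fold changes of the 7 readily detected members ran from -0.04 to 0.08 for siErk3 and from -0.05 to 0.11 for siMk5 with PA. The 95% intervals of Mapk3 were -0.05 to 0.19 and -0.02 to 0.22 with BSA and -0.16 to 0.09 and -0.09 to 0.16 with PA, for siErk3 and siMk5 in this order. Those of Mapk14 had outer ends of -0.15 and 0.15. Differences of 1.3-fold lie outside all of these intervals. Comparing siErk3 with siMk5 directly, 0 members passed either rule in BSA, where 0.588% and 0.818% of all genes passed, or in PA, where 1.03% and 1.54% passed.

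The member that passed the FDR was Mapk12 in both silencing comparisons with BSA, which share the siNTC BSA libraries. All 3 siErk3 BSA libraries (24.8 to 25.7 CPM) and all 3 siMk5 BSA libraries (23 to 25.5 CPM) lay below the 3 siNTC BSA libraries (28.7 to 31.1 CPM). The difference was -0.26 for siErk3 (SE 0.06, 95% interval -0.39 to -0.12, edgeR FDR 0.0398), a level 16.2% lower, and -0.34 for siMk5 (SE 0.07, -0.47 to -0.20, edgeR FDR 0.0247), a level 20.8% lower, and between siErk3 and siMk5 it was 0.08 (-0.05 to 0.21). With PA the differences were -0.01 (-0.14 to 0.12) and 0.03 (-0.09 to 0.16). Whether the BSA values passed the FDR depended on which library was left out, while their sizes moved little. For siErk3 the FDR was 0.0355 without siNTC BSA replicate 1 (-0.29), and 0.116 to 0.194 without siNTC BSA replicate 2 or 3 or any 1 siErk3 BSA library (-0.26 to -0.23). For siMk5 it was 0.0221 without siNTC BSA replicate 1 (-0.37) and 0.0149 without siMk5 BSA replicate 1, where the fold criterion was met as well (-0.39), and 0.137 to 0.219 without siNTC BSA replicate 2 or 3 or siMk5 BSA replicate 2 or 3 (-0.33 to -0.31). When libraries were scaled by totals alone, the siErk3 value missed the FDR (-0.24, FDR 0.0599) and the siMk5 value met both criteria (-0.44, FDR 0.000361). Counts on the 18S ribosomal RNA gene made up 2.56% to 7.17% of the total in siNTC BSA, 1.5% to 2.96% in siErk3 BSA and 8.39% to 12.87% in siMk5 BSA. Of the 9 myotube markers, Myh3 and Myh8 were called higher in siErk3 BSA and 0 in siMk5 BSA, and 0 of 6 myoblast and cycling markers were called in either, at summed levels of 870 to 900, 903 to 943 and 910 to 944 CPM in siNTC, siErk3 and siMk5. Their part in the Mapk12 values was not tested.

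Mapk12 and its tandem neighbour Mapk11 are compared because they lie side by side and did not move alike in these values. Mapk11 was at 0.13 (SE 0.08, FDR 0.628) and 0.17 (SE 0.08, FDR 0.727) in siErk3 and siMk5 with BSA, on the other side of 0 from Mapk12. The 250 bases before their annotated starts, from RefSeq on GRCm38.p6, are printed 5′ to 3′ on the gene's strand. Capitals mark matches, on either strand, to the E-box CANNTG, a general word shared by MyoD-type and other factors, and to the GC box GGGCGG.
Mapk12, chr15:89140704-89140953, minus strand: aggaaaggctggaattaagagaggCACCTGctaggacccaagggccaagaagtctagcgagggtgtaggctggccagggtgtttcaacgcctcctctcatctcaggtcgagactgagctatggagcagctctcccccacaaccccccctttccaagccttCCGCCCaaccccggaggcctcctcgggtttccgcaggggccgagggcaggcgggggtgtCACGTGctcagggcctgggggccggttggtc
Mapk11, chr15:89149607-89149856, minus strand: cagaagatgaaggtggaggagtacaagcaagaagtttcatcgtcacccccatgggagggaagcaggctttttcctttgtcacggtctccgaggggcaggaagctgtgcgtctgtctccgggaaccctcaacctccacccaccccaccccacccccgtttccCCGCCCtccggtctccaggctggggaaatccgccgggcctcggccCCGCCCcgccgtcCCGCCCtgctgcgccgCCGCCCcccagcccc
The Mapk12 window held 2 E-boxes and 1 GC box, and the Mapk11 window 0 E-boxes and 4 GC boxes. Of 32851 RefSeq windows of this length, 66.2% held an E-box and 32.7% a GC box, so that both are common words. Neither window held a match to the AP-1 word TGANTCA or the TATA box TATAAA, which 6.75% and 12.4% of all windows held. The matches do not overlap each other, and no binding was measured.

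Other cell states moved with PA beside the members. Of 6 myoblast and cycling markers, 5 (Ccnb1, Cdk1, Mki67, Pax7 and Top2a) were called lower with PA in each siRNA group, and their summed level was 870 to 944 CPM in the BSA libraries and 363 to 479 CPM in the PA libraries. The fibroblast markers Col1a1, Dcn and Pdgfra were called lower in each siRNA group, and the 5 listed ones summed to 1405 to 1767 CPM with BSA and 441 to 778 CPM with PA, while Thy1 and Lum averaged 0.0315 and 0.544 CPM. Of the myotube markers, Myh8 and Myog were called lower in all 3 groups and Ckm, Mymk and Ttn in siNTC as well. In bulk RNA, fewer cells of a kind and less RNA per cell cannot be told apart. The part of these shifts in the lower Mapk3 and the higher Mapk7 was not tested.

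The genes whose log2 CPM followed a called member most closely over the 18 libraries were compared by Pearson's r. For Mapk3 they were Smad6 and Crip2 (Pearson r = 0.994 each) and Mr1 (r = 0.992), with 2283 of 12733 compared genes above an r of 0.9. For Mapk7 they were Tmem161a (r = 0.984), Foxl1 (r = 0.981) and Plscr1 (r = 0.980). For Mapk12 the highest were Card14 (r = 0.911), Dtx3 (r = 0.90) and Napb (r = 0.892), and only 1 gene exceeded 0.9. The points share their libraries and fall into a PA and a BSA cluster for Mapk3 and Mapk7, so these values describe a likeness and carry no test.

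Around the members, most phosphatase genes that switch MAPKs off rose with PA, together with the marker shifts given above. Of 10 MAP kinase phosphatase genes, 9 rose with PA in siNTC, 10 in siErk3 and 8 in siMk5 and 0 fell, where 15.5%, 15.8% and 15.1% of all genes rose by both criteria. The median log2 fold change of the list was 0.88, 1.03 and 0.80, beside -0.03, -0.01 and -0.01 over all genes. Dusp4, a nuclear phosphatase of ERK, JNK and p38, rose from 26.3 to 157 CPM in siNTC (log2 fold change 2.58, SE 0.12, edgeR FDR 1.36e-17), and by 2.75 and 2.57 in siErk3 and siMk5. Dusp5, a nuclear ERK phosphatase, rose from 7.05 to 39.9 CPM in siNTC (2.49, SE 0.21), and Dusp6, a cytoplasmic ERK phosphatase, from 40.2 to 104 CPM (1.36, SE 0.11). Dusp16, which prefers JNK and p38, rose from 23.1 to 40.1 CPM (0.79, SE 0.08). Dusp9 was among the 4 smallest FDRs in siErk3 (1.43, SE 0.14) and Dusp2 in siMk5 (1.38, SE 0.17). The exceptions, named after their values were seen, were Dusp1 in siNTC (0.26) and Dusp1 and Dusp7 in siMk5 (0.31 and 0.33), which missed the fold criterion. Of the members, Mapk3 was lower in the same comparisons, and no readily detected p38 or JNK gene exceeded a log2 fold change of 0.44.

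The kinases upstream moved in both directions. Of 7 MAP2K genes, 2 rose and 1 fell in each siRNA group. Map2k1, which activates Mapk3's product, rose from 74.3 to 133 CPM in siNTC (0.84, SE 0.06, edgeR FDR 1.31e-13) and by 0.80 and 0.77 in siErk3 and siMk5, and thus opposite to Mapk3. Map2k3, an activator of p38 kinases, rose by 0.69, 0.62 and 0.58. The other p38 activator Map2k6, which was low, fell from 2.26 to 1.13 CPM in siNTC (-1.0, SE 0.24). Map2k5, the activator of ERK5, was not called, at -0.14, -0.22 and -0.25, and was named after its values were seen. Of 24 tested MAP3K and partner genes, 6, 7 and 5 rose and 3 fell in siNTC, siErk3 and siMk5. Map3k3 (0.76, 0.61 and 0.59) and Map3k2 (0.61, 0.55 and 0.60), which both feed the ERK5 relay, and Tab2 (0.42 in each), a partner of TAK1, were higher, and Map3k14 (-0.53, -0.64 and -0.62), the kinase of alternative NF-κB signalling, was lower. Map3k12, a JNK activator, was lower by 0.66, 0.80 and 0.68 on the log2 scale. The called genes Map3k5, Map3k6 and Map3k9 were named after their values were seen. Map3k5 (0.99, 0.75 and 0.56) and Map3k6 (0.74, 0.62 and 0.67) were higher, and Map3k9 (-0.52, -0.89 and -0.94) was lower.

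Scaffolds and downstream kinases held a few called genes each. Of 11 tested scaffold genes, Lamtor3, which anchors an ERK module at late endosomes, rose by 0.52, 0.53 and 0.57 on the log2 scale, and the arrestin gene Arrb1 fell (-0.65, -0.82 and -0.94). Cnksr1, a scaffold of the RAF step, rose in siNTC (0.74) and siMk5 (0.46). Of 9 tested kinases that ERK or p38 activates, Rps6ka2 (0.74, 0.61 and 0.60), Mknk1 (0.61, 0.53 and 0.58) and the low Mapkapk3 (1.0, 1.31 and 1.23) rose and Rps6ka5 (-0.59, -0.67 and -0.80) fell in each siRNA group. In the silencing comparisons, with siNTC or with each other, 0 genes of the 6 pathway lists were called, apart from Cnksr1. Cnksr1 was lower in siErk3 than in siNTC with PA, at 1.73 against 2.93 CPM (-0.76, SE 0.17, edgeR FDR 0.0166). Of all genes, only 0.0643% to 1.03% were called in these comparisons, so that the few calls say nothing particular about the lists.

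The nuclear substrates moved in both directions with PA. Of 15 genes, 3 rose and 3 fell in siNTC, 4 and 5 in siErk3, and 3 and 5 in siMk5, with list medians of -0.04, -0.25 and -0.13. Jun, the substrate that names the JNK branch, rose by 0.86, 0.79 and 0.74 on the log2 scale, and the ERK substrate Ets2 by 0.77, 0.66 and 0.67. Mef2a, a target of p38 and ERK5, fell by 0.46, 0.46 and 0.52, from 247 to 179 CPM in siNTC, and Nfatc4, a calcium-regulated factor that MAPKs restrain, fell by 1.09, 1.44 and 1.36. Elk1 and Mef2c were named after their values were seen. Elk1 rose by 0.53, 0.49 and 0.51, and Mef2c fell by 0.60, 0.59 and 0.45. The Elk1 relative Elk3, and Ets1, were called lower in siErk3 (-0.55 and -0.43) and siMk5 (-0.44 and -0.61). All list counts with PA are to be read against the 30.6%, 32.1% and 29.7% of genes called in these comparisons.

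**Figure D4:**
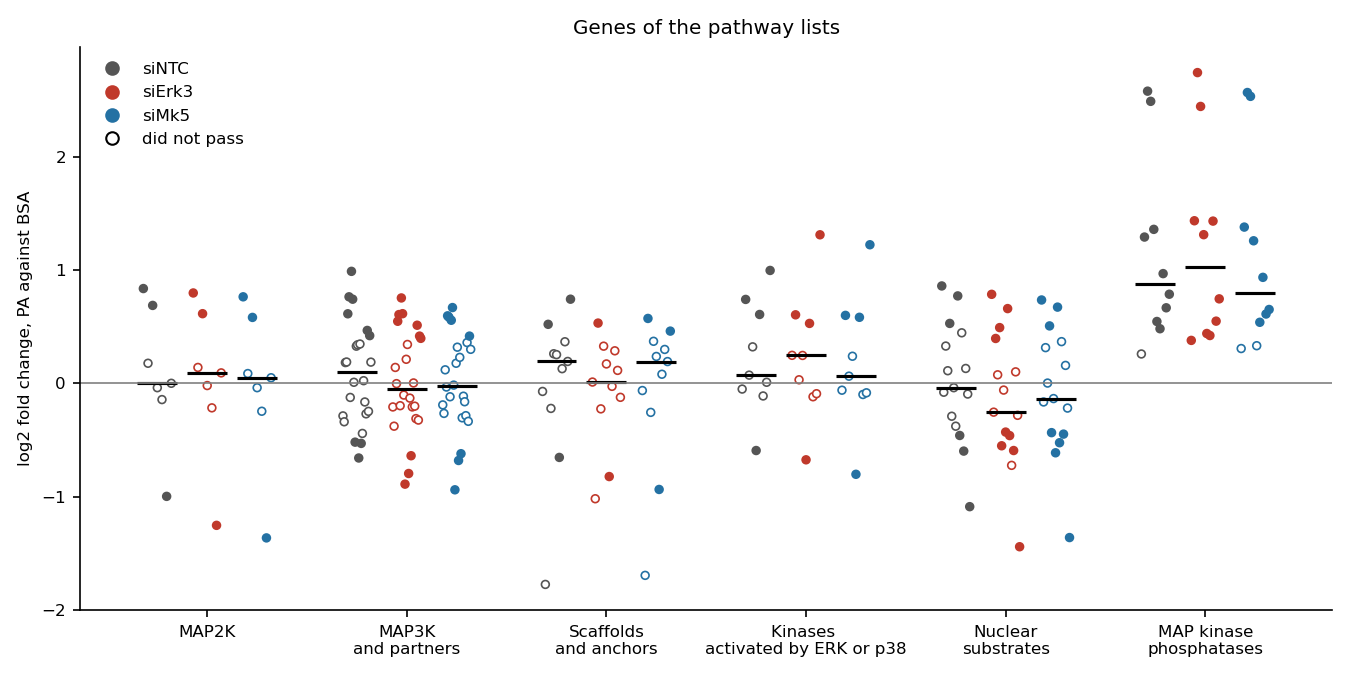
Log2 fold change with PA against BSA for every tested gene of 6 pathway lists in siNTC, siErk3 and siMk5 (filled points met both criteria, open points did not; black lines are list medians). The phosphatases lie above 0 throughout, with medians of 0.80 to 1.03, and the other lists lie on both sides of 0.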

How the data were processed

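RNA of 18 libraries, 3 for each of 6 groups given by the sample titles, was sequenced as stranded read pairs. The authors deposited counts of read pairs per gene without normalization. Per the file headers, featureCounts 2.0.0 was run with the Ensembl 105 annotation of GRCm39, strand setting 2 and only primary alignments of mapping quality 3 or more, whereas the labels name mm10. Reads had been trimmed with Trim Galore and aligned with STAR. Pairs overlapping 2 genes on 1 strand were left uncounted. A second deposited table of log2 values was not used. Columns belonging to other samples numbered 0.

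Genes reaching a total of 10 counts, 21772 of 55414, were fitted with edgeR 4.0.16 (limma 3.58.1, R 4.3.3), with TMM scaling, 1 coefficient per group and all 18 libraries, and tested by quasi-likelihood, with p-values adjusted by Benjamini and Hochberg's method (FDR). Gene symbols came from GENCODE M39, which named 54749 genes. RPKM were computed from TMM-scaled CPM and the exon length in the count table. Promoters of 8 of the 9 members matched RefSeq. Sequences were handled with Python 3.11.15 and Biopython 1.88. The tests were tried on simulated counts first.

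The members and gene lists were chosen with earlier results of these data known. Named genes are the members, Mapk6, Mapkapk5, the markers, at most 4 called genes per list and comparison by smallest FDR, and the 3 genes most like each called member. Alternatives were DESeq2 1.42.0, its size factors, scaling by totals, filterByExpr, no filter, a replicate block, the FDR alone, only the groups compared, and leaving out each library. The canonical transcript length was added after the data were seen. Libraries of a group differed by more than sampling noise, so all 18 were kept. Total counts of 13041979 to 28496727 limit mainly genes such as Mapk10, Mapk13 and Mapkapk5. The study states DESeq2 with the same 2 criteria.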

Additional observations from a re-analysis of the deposited data

How the results depend on the processing

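Of 1454 values of single members under the alternatives, 1434 kept their call, 3 lost and 17 gained one, and 0 called values changed sign. Of the gains, 10 came from dropping the fold criterion, and 81 of 1270 values that were not called in either fit had another sign. The number of members called with PA in siNTC, 2 as reported, was 1 under scaling by totals alone and 4 by the FDR alone. In siErk3, 1 as reported, it was 2 without a filter and 5 by the FDR alone, and in siMk5, 3 as reported, it was 5 by the FDR alone. For silencing with BSA, 0 as reported, the FDR alone gave 1 member for siErk3 and 1 for siMk5, and scaling by totals gave 1 for siMk5 and 1 for the interaction of siMk5 with PA. Leaving out 1 library gave 1 to 2 members with PA in siNTC, 1 to 2 in siErk3 and 2 to 3 in siMk5. It gave 0 to 1 for siMk5 against siNTC with BSA and 0 to 1 for the interaction of siMk5 with PA. The members concerned were Mapk7 and Mapk12. Why scaling by totals moved these counts was not tested.

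Over all genes, counts moved by over 1.5 times in these cases. For siMk5 against siNTC with BSA, 14 calls became 90 under totals and 61 without a filter. For siErk3 against siMk5 with BSA, 128 became 369 and 201. For the interaction of siMk5 with PA, 46 became 189 and 130. For that of siErk3, 8 became 72 without a filter, 0 with filterByExpr, and 4 with DESeq2 size factors or with only the groups compared. For siErk3 against siNTC with PA, 121 became 208 without a filter and 71 with only the groups compared, and by the FDR alone 171 became 263 with BSA and 121 became 186 with PA. Totals also moved the share of higher calls from 50.8% to 39.8% (PA in siNTC), 49.2% to 38.1% (PA in siErk3), 21.4% to 3.3% (siMk5, BSA) and 23.9% to 84.1% (interaction of siMk5). Leaving out 1 library gave 6 to 25 calls for siMk5 with BSA, by over 1.5 times fewer without siNTC BSA replicate 1 or 2 or siMk5 BSA replicate 3 and more without siMk5 BSA replicate 1. It gave 0 to 24 for the interaction of siErk3, with 0 to 3 without any 1 siNTC library, siErk3 BSA replicate 1 or 2 or siErk3 PA replicate 2 and 24 without siErk3 PA replicate 3, and 22 to 67 for that of siMk5, with 22 to 29 without siNTC BSA replicate 1 or 3, siMk5 BSA replicate 3 or siMk5 PA replicate 2. For siErk3 with BSA it gave 113 to 144, the lowest without siNTC BSA replicate 2.

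Same-numbered libraries were compared by the correlation of their deviations from the group means. In no comparison did all 3 pairs correlate above 0.1. With PA, replicates 1 to 3 gave 0.52, 0.05 and 0.43 between siErk3 and siMk5. Between siErk3 and siNTC they gave -0.61, 0 and -0.59, and between siMk5 and siNTC -0.50, 0.03 and -0.41. These values do not settle whether libraries of 1 number belong together. A block for the replicate number gave 2, 1 and 3 members called with PA in siNTC, siErk3 and siMk5 and 0 elsewhere, so that it changed no call of a member.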
